A study of Mus musculus with 419 samples.

Results

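The cells described here are the 42 with the highest summed level of the keratins Krt8 and Krt18 among 419 single mouse embryonic stem cells. For each cell, the values of all transcript rows of both genes were added over the 129 and CAST allele tables and divided by the cell's total, which gives a level in parts per 1000000 of that total (ppm). The 42 highest cells, called keratin-high, were set against the 209 cells of lowest level, called keratin-low, which make up the lower part of the ranking up to its middle. The 168 cells between them entered neither group. Both groups are choices on measured values from the same cells, so all differences below are descriptions of these cells and carry no test.

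All 419 cells belong to the female line F1-21.6, a hybrid with 1 set of chromosomes from 129Sv and 1 from Cast/EiJ. They were cultured on laminin-511 with no feeder layer, in medium with fetal bovine serum and leukemia inhibitory factor, and were in G1 phase, per the labels. Neither group received a treatment that the other did not. The libraries were made by RamDA-seq, which reads total RNA of a single cell over whole transcripts. The series asked how transcription bursts on each allele. Separate cultures are not named, so the 419 cells of this 1 line were treated as 1 sample.

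Krt8 and Krt18 encode the type II and type I partners of the obligate keratin pair of simple epithelia, which assembles into intermediate filaments and is anchored at desmosomes by plakin proteins. In the early mouse embryo this pair is among the first keratins made, in trophectoderm and later in extraembryonic endoderm, whereas naive embryonic stem cells make little of it. Naive embryonic stem cells are held in that state by a network of transcription factors around Pou5f1, Sox2, Nanog and Esrrb, and cultures with serum are known to contain cells that leave it.

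Krt8 (ENSMUSG00000049382) lies on the minus strand of chromosome 15 at 101996698 to 102004482, and Krt18 (ENSMUSG00000023043) lies on the plus strand at 102028180 to 102032027, in mm10 coordinates of GENCODE vM21. Promoter windows of 300 bases were taken from RefSeq, build GRCm38.p6, for these 2 genes and for the genes with the largest differences described below. Windows were found for 4 of the 7 genes looked for, and Thbs1, Tagln and Krt19 are named only. The windows are shown because these genes are the pair that chose the cells and those of large differences between the groups. Each starts 250 bases before the RefSeq start and ends 50 bases after it, on the strand of the gene. That start differs from the GENCODE gene limits given above for Krt8 and Krt18. The windows lie at chr15:102004293-102004592 (minus) for Krt8, chr15:102027966-102028265 (plus) for Krt18, chr15:101412153-101412452 (plus) for Krt7 and chr3:107760420-107760719 (minus) for Csf1. Capitals mark matches of the motifs searched.
Krt8: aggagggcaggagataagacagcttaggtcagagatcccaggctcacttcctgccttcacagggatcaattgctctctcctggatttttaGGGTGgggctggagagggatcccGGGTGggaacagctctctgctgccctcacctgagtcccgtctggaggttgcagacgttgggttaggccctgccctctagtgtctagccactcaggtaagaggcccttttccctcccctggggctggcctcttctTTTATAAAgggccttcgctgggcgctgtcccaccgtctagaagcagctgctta
Krt18: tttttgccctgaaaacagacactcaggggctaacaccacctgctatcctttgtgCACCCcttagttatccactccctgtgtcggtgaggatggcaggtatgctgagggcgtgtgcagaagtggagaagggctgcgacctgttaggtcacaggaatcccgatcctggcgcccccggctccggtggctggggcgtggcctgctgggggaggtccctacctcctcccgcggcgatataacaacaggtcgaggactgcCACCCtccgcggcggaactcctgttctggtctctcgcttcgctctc
Krt7: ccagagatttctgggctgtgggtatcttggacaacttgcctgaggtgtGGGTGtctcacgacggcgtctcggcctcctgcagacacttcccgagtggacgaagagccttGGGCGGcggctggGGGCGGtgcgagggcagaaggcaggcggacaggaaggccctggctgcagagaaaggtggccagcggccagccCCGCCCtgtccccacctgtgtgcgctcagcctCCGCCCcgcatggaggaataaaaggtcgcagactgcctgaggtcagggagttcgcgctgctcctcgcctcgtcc
Csf1: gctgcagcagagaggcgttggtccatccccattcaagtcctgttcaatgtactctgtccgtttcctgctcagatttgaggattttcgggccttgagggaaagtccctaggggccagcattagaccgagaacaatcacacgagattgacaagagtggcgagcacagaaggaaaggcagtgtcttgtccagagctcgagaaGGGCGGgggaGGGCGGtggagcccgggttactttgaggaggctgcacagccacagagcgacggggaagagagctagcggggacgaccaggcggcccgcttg

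On both strands, the AP-1 motif was searched as TGANTCA, the TEAD motif as GGAATG, the GC box as GGGCGG, the TATA box as TATAAA, the Klf motif as CACCC, and the CArG box of SRF by its usual letters. On the other strand, a CACCC match reads GGGTG and a GGGCGG match reads CCGCCC. The Krt8 window held 2 overlapping TATAAA matches, 1 on each strand, in a single stretch, and 2 CACCC matches. The Krt18 window held 2 CACCC matches. The Krt7 window held 4 GGGCGG matches and 1 CACCC match, and the Csf1 window held 2 GGGCGG matches. Among all 32851 windows of the table, 13.6% held TATAAA, 57.5% held CACCC and 35.7% held GGGCGG. The AP-1, TEAD and CArG letters, present in 7.81%, 14.7% and 1.63% of all windows, were in none of the 4. A match is a description of the letters only.

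The keratin level formed a long upper tail. In the keratin-high cells it was 178, 1953 and 14043 ppm (lowest, median and highest), in the cells between 11.1, 21.9 and 176, and in the keratin-low cells 0, 5.52 and 11.0. The last cells inside the choice of 42 had 181 and 178 ppm, and the first outside had 176 and 160, so the boundary cuts through a continuous slope. At the other boundary the lowest cell between had 11.1 ppm and the highest keratin-low cell 11.0. Within the 42, the 22 highest cells had at least 1738 ppm, and the next cell had 1203.

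**Figure D1:**
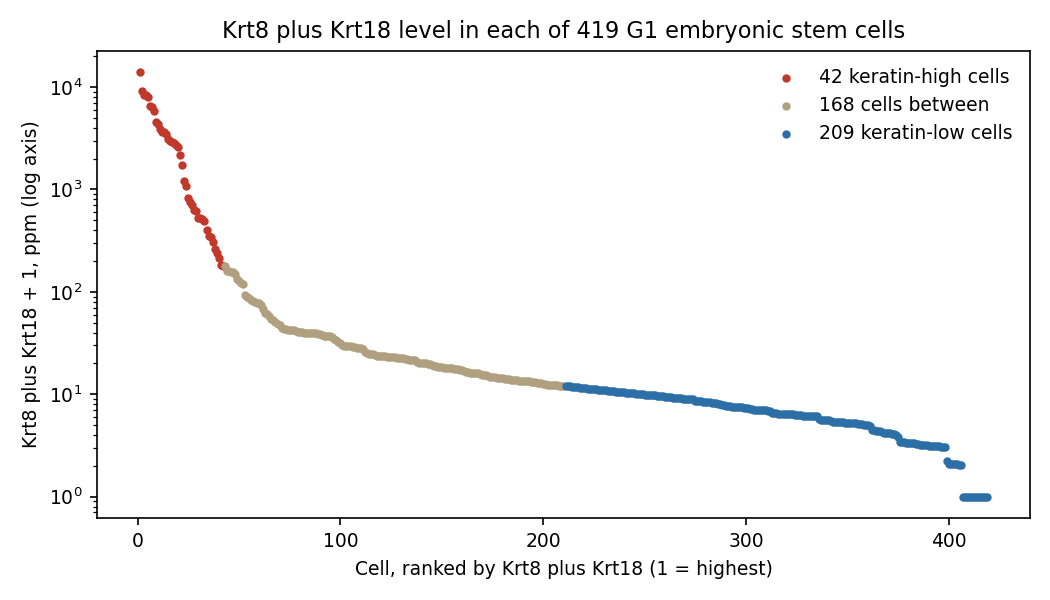
Krt8 plus Krt18 level in ppm, plus 1, on a log axis (vertical) for each of the 419 cells in order of rank (horizontal); colours mark the 42 keratin-high cells, the 168 cells between and the 209 keratin-low cells. The slope is steep from 14043 to about 178 ppm within the keratin-high cells and has no gap at the boundary to the cells between.

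Krt8 alone measured 73.9, 1485 and 7310.4 ppm in the keratin-high cells against 0, 2.18 and 11.0 in the keratin-low cells. Krt18 alone measured 2.03, 402 and 6733 ppm in the keratin-high cells against 0, 2.28 and 10.7 in the keratin-low cells. Both keratins were above 0 in 42 of 42 keratin-high cells, in 157 of 168 cells between and in 102 of 209 keratin-low cells, and 13 keratin-low cells had neither. Krt18 exceeded the highest keratin-low cell in 41 of the 42. The other had 2.03 ppm of Krt18, below the keratin-low median of 2.28, and was chosen through its 1201 ppm of Krt8. Across the 42 cells, the Spearman correlation of Krt8 with Krt18 was 0.88, over cells that share libraries, scaling and the choice itself. It was 0.51 over all 419 cells and -0.24 in the keratin-low cells, which were also chosen on the sum of both genes.

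Both parental copies of each keratin gene contributed. The 129 allele gave 48.3% of the Krt8 level and 49.0% of the Krt18 level pooled over the keratin-high cells. Krt8 was read from both alleles in 42 of the 42 cells and Krt18 in 40. The 129 share lay outside 20% to 80% in 4 cells for Krt8 and in 6 for Krt18. The correlation between the 129 and CAST values over the 42 cells was 0.92 for Krt8 and 0.87 for Krt18. When the 42 highest cells were chosen by 1 measure at a time, 41 of the 42 cells came back with Krt8 alone, 39 with Krt18 alone, 37 with the 129 table alone and 40 with the CAST table alone. Each of these measures is a part of the sum that chose the cells, as are the allele values correlated above. Overlap and correlation are therefore partly built in.

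The keratin-high cells came from every sequencing lane, with 9, 6, 12, 8 and 7 cells in lanes 2 to 6, which are 10.2%, 7.23%, 14.6%, 10.0% and 8.14% of the cells of those lanes. Their total value per cell had a median of 931336.5, against 927963 in the keratin-low cells, and the median number of genes above 0 was 13632 against 13658. Ribosomal RNA rows took a median of 12.4% of the total in the keratin-high cells and 16.0% in the keratin-low cells. Mitochondrial rows took a median of 4.29% against 4.81%, and 3 keratin-high and 3 keratin-low cells were under 0.1%. On distal chromosome 12, beyond 80 Mb, the 129 share was under 35% in 17 of 42 keratin-high cells (40.5%, exact 95% binomial interval 25.6% to 56.7%) and in 147 of 209 keratin-low cells (70.3%, interval 63.6% to 76.4%). These intervals cover counting error only. The lower 129 share, which marks most cells of the line, was therefore less frequent among keratin-high cells. Among cells under 35% alone, 17 keratin-high and 147 keratin-low, 570 genes were called higher and 342 lower. With totals taken without ribosomal RNA, mitochondrial and keratin rows, 9418 genes entered, of which 799 were called higher and 592 lower, against 762 and 471 of 8781 by the rule below.

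Across all other genes, the keratin-high cells showed higher levels of other simple keratins, desmosomal, contractile actin, annexin and matrix genes, and lower levels of the naive and core pluripotency genes. A difference is the log2 ratio of mean levels in ppm, keratin-high over keratin-low, with 1 added to each mean, so that it understates the change of low genes. A gene entered when its mean over all cells was at least 10 ppm and it was above 0 in at least 10% of them, which left 8781 genes without Krt8 and Krt18. A gene near 0 elsewhere could enter through its level in the keratin-high cells alone, so counts within a list describe the members that entered and support nothing further. It was called when the difference was at least 1, or -1 or less, and had the same sign in each of the 5 lanes. By this rule 762 genes were higher (8.68% of those that entered) and 471 were lower (5.36%). The median difference over all 8781 genes was -0.02, with quartiles of -0.37 and 0.40. Differences of at least 4-fold were called for 201 higher and 96 lower genes, and of at least 8-fold for 65 higher and 15 lower genes. The groups were read from the same lanes, and the SD over 5 lanes given with a difference is the spread between sequencing lanes, not between cultures.

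**Figure D2:**
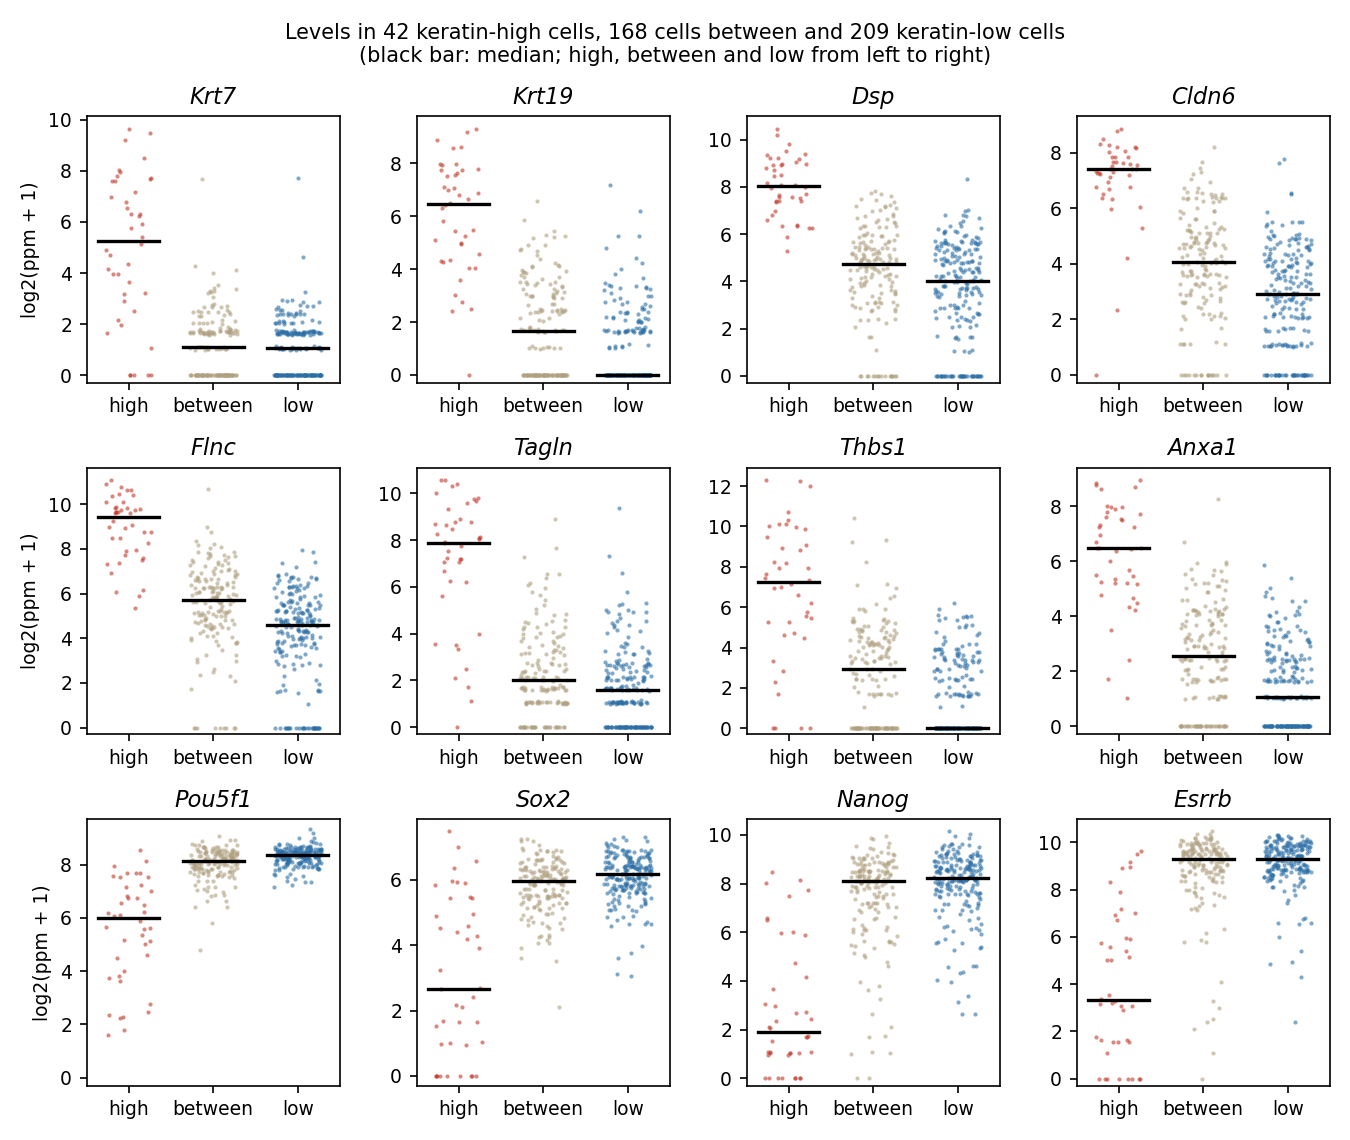
Levels of 12 genes as log2(ppm + 1) (vertical) in the 42 keratin-high cells, the 168 cells between and the 209 keratin-low cells (left to right in each panel); each point is a cell and the black bar is the median. Krt7, Krt19, Dsp, Cldn6, Flnc, Tagln, Thbs1 and Anxa1 have their highest medians in the keratin-high cells, and Pou5f1, Sox2, Nanog and Esrrb their lowest.

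The 2 other simple keratins that entered, Krt19 and Krt7, were both higher in the keratin-high cells. Krt19 averaged 6.26 ppm in the cells between and 3.28 in the keratin-low cells, and Krt7 averaged 3.25 and 2.63. These averages are below the entry level, so both genes entered through the keratin-high cells. Their common direction is therefore a description of the members that entered and not a result about the list. Krt19, a type I keratin of simple and ductal epithelia, measured 0, 87.0 and 637 ppm in the keratin-high cells against 0, 0 and 144 in the keratin-low cells (lowest, median and highest, as in the sentences that follow). The log2 difference was 5.03 (SD over lanes 0.91), and 14 of the 42 cells lay above the highest keratin-low cell. Krt7, a type II keratin expressed in trophectoderm and placenta, measured 0, 37.8 and 803 ppm in the keratin-high cells against 0, 1.1 and 207 in the keratin-low cells, a log2 difference of 5.06 (SD over lanes 0.76). A single keratin-low cell at 207 ppm made its groups overlap, and 8 keratin-high cells lay above it. Of the other 4 simple keratins on the list, Krt23 was at 0 in all 42 cells. None of 11 keratins of stratified epithelia entered, and Krt6a, Krt6b and Krt13 were at 0 in all 42 cells. The summed level of the stratified list was 0, 6.04 and 421 ppm in the keratin-high cells against 0, 3.05 and 83.3 in the keratin-low cells, so a few keratin-high cells exceeded the others.

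Genes of the desmosome and its keratin-binding plakins were higher as a group. Of 16 such genes, 13 entered, 8 were called higher and none lower (8.68% and 5.36% over all genes). Their median difference was 1.68 against -0.02 over all genes. Dsp, desmoplakin, which ties keratin filaments to the desmosomal plaque, measured 38.0, 263 and 1418 ppm in the keratin-high cells against 0, 15.3 and 325 in the keratin-low cells. Its log2 difference was 3.78 (SD over lanes 0.44), and every keratin-high cell had some Dsp. Dsc2, the desmocollin cadherin of simple epithelia, measured 6.87, 62.9 and 249 ppm in the keratin-high cells against 0, 1.03 and 85.4 in the keratin-low cells, a log2 difference of 3.59 (SD over lanes 0.27). Both groups overlapped for Dsp and Dsc2, with 18 and 15 keratin-high cells above the highest keratin-low cell. The plaque genes Pkp3, Pkp2 and Jup had log2 differences of 2.20, 1.68 and 1.29. The plakins Plec and Ppl had log2 differences of 1.86 and 1.87, and Perp, a desmosomal tetraspan protein that is also a p53 target, one of 3.22. The 5 that were not called were Dst, Dsg2, Macf1, Tchp and Pkp4, from -0.05 to 0.90. The list's median was lower, at 0.93, when each gene was read from its row with the largest sum in place of the sum of its rows.

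Other intermediate filament genes did not move as a group. Of 15 listed, 9 entered, 4 were called higher and 2 lower (8.68% and 5.36% over all genes). The list's median was 0.85 in the pooled cells but lay between -0.42 and 0.34 within single lanes. Nes, the neuroepithelial filament protein nestin, was called higher with 0, 80.7 and 875 ppm in the keratin-high cells against 0, 11.7 and 105 in the keratin-low cells and a log2 difference of 3.31. Prph and Lmna, which encode peripherin and the A-type lamins, were called higher with log2 differences of 1.95 and 1.52. Ina and Nefh, 2 neuronal filament genes, were called lower with -1.38 and -1.64. Vim, the mesenchymal filament gene vimentin, measured 0, 45.6 and 7175 ppm in the keratin-high cells against 0, 160.4 and 879.9 in the keratin-low cells. Its keratin-high median was below the keratin-low one while its mean was above it, 1 cell held 50.2% of the keratin-high sum, and the gene was not called (log2 difference 0.85, from -1.65 to 2.75 over lanes).

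Epithelial adhesion and tight junction genes were higher as a group: 15 of 25 entered, 9 were called higher and none lower, with a median difference of 1.33. Over all genes 8.68% were called higher and 5.36% lower. Cldn6, a claudin of early embryonic epithelia, measured 0, 169 and 469.6 ppm in the keratin-high cells against 0, 6.49 and 221 in the keratin-low cells, a log2 difference of 3.69 (SD over lanes 0.46). Cgn, the tight junction plaque protein cingulin, measured 6.87, 165 and 526 ppm in the keratin-high cells against 0, 15.5 and 145 in the keratin-low cells, with a log2 difference of 3.31. 25 of the 42 cells had more Cgn than any keratin-low cell. Cldn4 and St14, a claudin and the membrane serine protease matriptase, had log2 differences of 2.51 and 2.36. Cdh1, the epithelial cadherin that embryonic stem cells already make, measured 69.4, 815 and 1904 ppm in the keratin-high cells against 62.4, 319.9 and 889 in the keratin-low cells, with a log2 difference of 1.33. Epcam and Grhl2 were not called, with 0.56 and 0.54. Patj, a polarity scaffold of the tight junction outside the list, measured 51.3, 144 and 386 ppm in the keratin-high cells against 0, 13.7 and 140.2 in the keratin-low cells, a log2 difference of 2.95. It was above 0 in all 42 keratin-high cells.

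Actin cytoskeleton and contractile genes were higher as a group, with a median difference of 1.53. Of the 37 that entered (of 46 listed), 22 were called higher and none lower (8.68% and 5.36% over all genes). The summed level of the list was 13749, 29126 and 75318 ppm in the keratin-high cells against 7384, 13734 and 31244 in the keratin-low cells, so 20 keratin-high cells exceeded every keratin-low cell and the rest overlapped. Tagln, the smooth muscle actin-binding protein transgelin, measured 0, 236 and 1519.6 ppm in the keratin-high cells against 0, 2.05 and 654 in the keratin-low cells. Its log2 difference was 5.28 (SD over lanes 1.38). Flnc, the actin crosslinker filamin C, measured 40.1, 690.4 and 2175 ppm in the keratin-high cells against 0, 23.2 and 248 in the keratin-low cells, and its log2 difference was 4.40 (SD over lanes 0.37). 30 of the 42 cells lay above the highest keratin-low cell for Flnc. Gsn, the actin-severing protein gelsolin, measured 2.15, 96.6 and 1011 ppm in the keratin-high cells against 0, 4.01 and 40.0 in the keratin-low cells. 31 of the 42 cells lay above all keratin-low cells, and its log2 difference was 4.55. Acta2, smooth muscle actin, was uneven: it was at 0 in 10 of the 42 cells and measured 0, 83.0 and 9475 ppm in the keratin-high cells against 0, 0 and 35.5 in the keratin-low cells. Its log2 difference of 8.57 is the highest of the list, and 28.3% of its keratin-high sum came from 1 cell and 69.6% from 3 cells. Without those 3 cells the difference was 6.97.

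The tropomyosins and the nonmuscle myosin heavy chain moved with these. Tpm1 measured 43.4, 701 and 2472 ppm in the keratin-high cells against 15.6, 63.9 and 1003 in the keratin-low cells, a log2 difference of 3.36 (SD over lanes 0.25). Tpm2 and Tpm4 had log2 differences of 3.87 and 2.61. Myh9, nonmuscle myosin IIA, measured 787, 2217 and 3809.9 ppm in the keratin-high cells against 206, 539.5 and 2314 in the keratin-low cells, with a log2 difference of 1.90 and a spread of 0.16 over lanes. The focal adhesion genes Vcl and Zyx had log2 differences of 2.42 and 2.36. General actin genes did not reach the call: Actb and Actg1 had 0.68 and 0.92, and Cfl1 and Pfn1, cofilin and profilin, had -0.21 and 0.02. Keratins, actins and tropomyosins have near copies or pseudogenes, and how the authors divided shared reads among them is not stated in the labels. Reading only the 129 table gave a list median of 1.18.

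Microtubule genes showed no common direction, with 3 of 14 called higher, 2 lower (8.68% and 5.36% over all genes) and a median of 0.15. Tubb6, a beta-tubulin, measured 63.0, 464 and 1474 ppm in the keratin-high cells against 21.8, 114 and 533 in the keratin-low cells, with a log2 difference of 2.10. Stmn1, the microtubule destabiliser stathmin, measured 0, 18.1 and 114 ppm in the keratin-high cells against 28.8, 90.9 and 258 in the keratin-low cells. Its log2 difference was -1.92, and 31 of the 42 cells were below the lowest keratin-low cell. Tubb2b was called lower with -1.24, and Tubb3 was not called, with 1.52 and values from -0.79 to 2.49 over lanes.

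Genes listed as targets of YAP and TEAD, the coactivator and DNA-binding factors that respond to cell tension, were mostly higher, with a median of 1.83. Of the 15 that entered (of 24 listed), 11 were called higher and none lower (8.68% and 5.36% over all genes). Thbs1, the secreted matrix glycoprotein thrombospondin-1, measured 0, 151 and 5027 ppm in the keratin-high cells against 0, 0 and 71.8 in the keratin-low cells. It was at 0 in 4 keratin-high cells, above the highest keratin-low cell in 25, and its log2 difference was 6.47 (SD over lanes 1.00). F3, the coagulation receptor tissue factor, measured 0, 34.7 and 1547 ppm in the keratin-high cells against 0, 5.41 and 106 in the keratin-low cells, a log2 difference of 3.63. The matricellular genes Ccn1 and Ccn2, often read as the main targets, had log2 differences of 1.59 and 1.89, and Ccn2 was not called because 1 lane was at -0.02. Ajuba and Dlc1 had -0.18 and -0.86 and were not called.

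Annexin, S100 and galectin genes were higher in 11 of the 13 that entered, with none lower (8.68% and 5.36% over all genes). Their median was 1.85. Anxa1, a calcium-dependent phospholipid-binding protein, measured 1.02, 88.2 and 498 ppm in the keratin-high cells against 0, 1.1 and 56.7 in the keratin-low cells. Its log2 difference was 4.79 (SD over lanes 0.45), and it was above 0 in all 42 keratin-high cells and in 126 of 209 keratin-low cells. Anxa2, a membrane and actin-linked annexin, measured 21.5, 189.6 and 1224 ppm in the keratin-high cells against 0, 15.0 and 134 in the keratin-low cells, with a log2 difference of 3.78. Lgals1, galectin-1, measured 9.16, 250.4 and 925 ppm in the keratin-high cells against 0, 15.2 and 161 in the keratin-low cells, and 31 of the 42 cells were above all keratin-low cells. Anxa11 was not called, at 0.22.

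Among the 15 genes with the largest positive differences and no cell above 25% of the keratin-high sum, several encode secreted or matrix proteins. Csf1, Bmp1, Phldb2, Slc25a24, Sema6a, Krt7 and Krt19 averaged under 10 ppm in the cells between and in the keratin-low cells. They therefore entered through the keratin-high cells. Anxa1, Gsn, Tinagl1, Cdcp1, Tagln and Thbs1 averaged under 10 ppm in the keratin-low cells. The make-up of the 15 is thus partly set by the entry rule and is a description only. Csf1, the macrophage growth factor, measured 0, 36.0 and 839 ppm in the keratin-high cells against 0, 0 and 19.4 in the keratin-low cells. Its log2 difference was 5.94 (SD over lanes 1.02), and it was above 0 in 36 of 42 keratin-high and 50 of 209 keratin-low cells. Tinagl1, a secreted matrix protein, measured 0, 49.7 and 1047 ppm in the keratin-high cells against 0, 0 and 97.8 in the keratin-low cells, a log2 difference of 4.47. Bmp1, the procollagen protease, measured 0, 52.3 and 405 ppm in the keratin-high cells against 0, 2.07 and 26.5 in the keratin-low cells, a log2 difference of 4.41. 27 of the 42 cells had more Bmp1 than any keratin-low cell.

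The others of the 15 are membrane-linked or intracellular. Phldb2, which links microtubules to the cell cortex, measured 0, 64.7 and 1266 ppm in the keratin-high cells against 0, 2.70 and 38.4 in the keratin-low cells, a log2 difference of 5.01. Slc25a24, a mitochondrial ATP-Mg/phosphate carrier, measured 3.58, 62.9 and 311 ppm in the keratin-high cells against 0, 0 and 52.6 in the keratin-low cells, a log2 difference of 4.59. It was above 0 in all 42 keratin-high cells and in 85 of 209 keratin-low cells. Sema6a, a transmembrane semaphorin, was above 0 in 28 of 42 keratin-high and 57 of 209 keratin-low cells, with a log2 difference of 4.12. Cdcp1, a transmembrane protein phosphorylated by Src kinases, measured 0, 79.9 and 271 ppm in the keratin-high cells against 0, 0 and 92.8 in the keratin-low cells, a log2 difference of 3.93. H19, an imprinted long noncoding RNA of extraembryonic and fetal tissue, had the widest spread over lanes of the 15 and measured 0, 268 and 14137 ppm in the keratin-high cells against 0, 13.3 and 3891 in the keratin-low cells. 5 keratin-high cells lay above all keratin-low cells for H19, and its log2 difference of 4.44 ranged from 1.68 to 6.06 over lanes.

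Naive pluripotency genes were lower in the keratin-high cells in 17 of 20, with none higher (5.36% and 8.68% over all genes). Their median difference was -2.48 (from -3.24 to -1.85 over lanes). Their summed level was 206, 477 and 3899 ppm in the keratin-high cells against 886, 3954 and 7144 in the keratin-low cells. Of the 42 cells, 29 lay below the lowest keratin-low cell, and so did 5 of the 168 cells between. Nanog, the homeobox factor of the naive state, measured 0, 2.75 and 357 ppm in the keratin-high cells against 5.26, 297 and 1127 in the keratin-low cells. It was below the lowest keratin-low cell in 25 of the 42 cells, with a log2 difference of -2.96 (SD over lanes 1.73). Esrrb, an orphan nuclear receptor of the naive network, measured 0, 9.02 and 805 ppm in the keratin-high cells against 4.22, 629 and 1264 in the keratin-low cells, a log2 difference of -2.57. It was at 0 in 8 keratin-high cells and in none of the keratin-low cells.

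Zfp42, the naive marker Rex1, measured 2.10, 24.5 and 426 ppm in the keratin-high cells against 16.9, 304 and 874 in the keratin-low cells, a log2 difference of -2.52 (SD over lanes 0.66). Nr0b1, the nuclear receptor Dax1, measured 0, 0 and 271 ppm in the keratin-high cells against 0, 166 and 572 in the keratin-low cells. Its log2 difference was -3.58, and as an X-linked gene it was read from the CAST table alone. Tcl1, a coactivator of Akt, measured 0, 0 and 27.9 ppm in the keratin-high cells against 0, 17.8 and 109 in the keratin-low cells, a log2 difference of -3.58. It lies on distal chromosome 12, where the median 129 share was 48.1% in the keratin-high and 26.8% in the keratin-low cells. The part of that regional difference in the Tcl1 level was not tested. Gbx2, Jam2 and Nr5a2, a homeobox factor, a junctional adhesion molecule and a nuclear receptor, had log2 differences of -3.30, -3.21 and -3.20. Klf4, a Krüppel-like factor, measured 0, 14.9 and 123 ppm in the keratin-high cells against 2.11, 93.8 and 352 in the keratin-low cells, a log2 difference of -2.52. The 3 genes not called were Stat3, Klf5 and Dppa3, with log2 differences of -0.80, -0.73 and -0.57.

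Core pluripotency genes were lower in 13 of 16, with none higher (5.36% and 8.68% over all genes). Their median difference was -1.44 (from -2.18 to -1.06 over lanes). Their summed level was 318, 2442 and 6626 ppm in the keratin-high cells against 3877, 6464 and 9223 in the keratin-low cells, and 34 of the 42 cells lay below the lowest keratin-low cell. Pou5f1, the POU factor Oct4 without which the pluripotent state is lost, measured 2.03, 62.6 and 375 ppm in the keratin-high cells against 143, 327 and 639 in the keratin-low cells. 32 of the 42 cells were below the lowest keratin-low cell and none was above the highest, with a log2 difference of -1.85 (SD over lanes 0.79). Sox2, its HMG-box partner, measured 0, 5.36 and 179 ppm in the keratin-high cells against 7.41, 71.5 and 159 in the keratin-low cells, a log2 difference of -1.50. 22 keratin-high cells were below all keratin-low cells for Sox2 and 1 was above them all.

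Tdh, the threonine dehydrogenase of mouse embryonic stem cell metabolism, had the lowest difference of all named genes and measured 0, 0 and 179 ppm in the keratin-high cells against 0, 164 and 467 in the keratin-low cells. It was above 0 in 16 of 42 keratin-high and 207 of 209 keratin-low cells, with a log2 difference of -4.50 (SD over lanes 1.53). Sall4, a zinc finger factor, measured 6.10, 203 and 905 ppm in the keratin-high cells against 269, 619 and 1044 in the keratin-low cells, a log2 difference of -1.15. The 3 core genes not called were Utf1, Dppa4 and Lin28a, with -0.91, -0.72 and -0.44. Lin28a, an RNA-binding protein that blocks let-7 processing, differed least of the list.

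**Figure D3:**
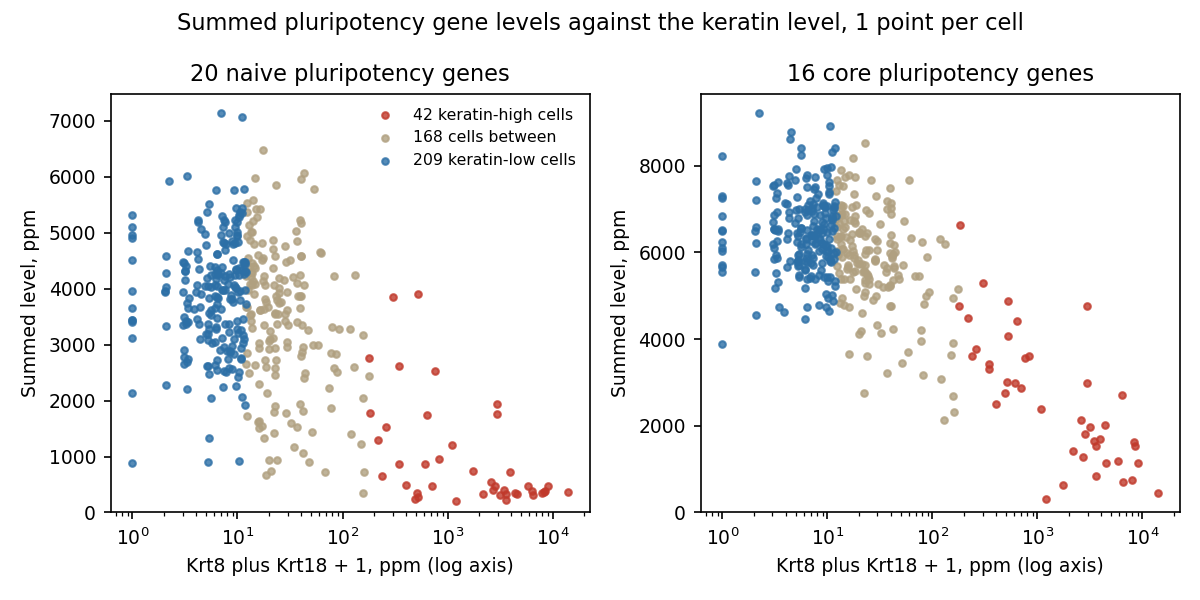
Summed level in ppm of 20 naive (left) and 16 core (right) pluripotency genes (vertical) against the Krt8 plus Krt18 level in ppm plus 1 (horizontal, log axis), 1 point per cell, coloured by group. The keratin-high cells reach down to 206 for the naive and 318 for the core genes, below the lowest keratin-low cells at 886 and 3877. 29 of the 42 keratin-high cells lie below every keratin-low cell for the naive genes and 34 for the core genes, and the rest overlap, among them, for the naive genes, cells at 2940.4 and 2935 ppm of keratin.

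Formative and primed genes, which mark the state after the naive one, were not higher as a group. Of 17 listed, 9 entered, none was called higher and 4 lower (8.68% and 5.36% over all genes), with a median of -0.77. Lef1 and Tcf15, a Wnt-responsive factor and a helix-loop-helix factor, were called lower with log2 differences of -2.65 and -2.59. Dnmt3b, the de novo DNA methyltransferase, measured 2.03, 213 and 1328 ppm in the keratin-high cells against 33.7, 403 and 1716 in the keratin-low cells, with a log2 difference of -0.31, not called. Otx2 and Fgf5, the usual markers of that state, were too low to enter. Otx2 was above 0 in 5 of 42 keratin-high and 110 of 209 keratin-low cells, and Fgf5 in 9 and 16.

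Beyond these lists, the genes of the largest negative differences had varied functions. Ntn1, the secreted guidance factor netrin-1, measured 0, 0 and 51.4 ppm in the keratin-high cells against 0, 48.3 and 270.3 in the keratin-low cells, a log2 difference of -3.81. Ano1, a calcium-activated chloride channel, averaged 0.664 ppm in the keratin-high cells and 21.5 in the keratin-low cells, a log2 difference of -3.75. H2-M5, a nonclassical major histocompatibility gene, measured 0, 0 and 25.7 ppm in the keratin-high cells against 0, 30.4 and 86.6 in the keratin-low cells, with a log2 difference of -3.57. The keratin-high median of each of these 3 genes was 0.

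Enox1, a cell-surface oxidase, measured 0, 0 and 34.3 ppm in the keratin-high cells against 0, 49.2 and 146 in the keratin-low cells, a log2 difference of -3.45. Cobl, the actin nucleator cordon-bleu, measured 0, 6.17 and 89.3 ppm in the keratin-high cells against 0, 105 and 591 in the keratin-low cells, a log2 difference of -3.20, opposite in sign to most genes of the actin list. Lama1, the laminin alpha 1 chain of early basement membranes, measured 0, 10.3 and 399.7 ppm in the keratin-high cells against 0, 229.5 and 1144 in the keratin-low cells, and its log2 difference of -3.19 ranged from -8.35 to -2.08 over lanes. Mcf2, an X-linked guanine nucleotide exchange factor, had a log2 difference of -3.13. Mymx, a micropeptide known from myoblast fusion, measured 0, 0 and 37.1 ppm in the keratin-high cells against 0, 22.4 and 76.8 in the keratin-low cells, a log2 difference of -2.98.

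Genes of trophectoderm, the outer epithelium of the blastocyst, were higher in 8 of the 14 that entered (of 27 listed) with none lower. Over all genes, 8.68% were higher and 5.36% lower. The median of the list was 1.48. The 8 list members called higher were Krt7, Krt19, Sfn, Wnt7b, Peg10, Slc2a1, Id2 and Lgals3. The summed level of the list was 3026, 11691 and 36508 ppm in the keratin-high cells against 657, 2720.0 and 19463 in the keratin-low cells. Of these 8 genes, Krt7 and Krt19 entered through the keratin-high cells, as described above. Sfn, the epithelial adaptor 14-3-3 sigma, measured 15.6, 214 and 715 ppm in the keratin-high cells against 0, 19.8 and 260.3 in the keratin-low cells, a log2 difference of 2.81. Wnt7b, a Wnt ligand, measured 0, 82.7 and 348 ppm in the keratin-high cells against 0, 4.47 and 188 in the keratin-low cells, a log2 difference of 2.74. Slc2a1, the glucose transporter GLUT1, had 1.79.

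The trophectoderm-defining factors were low or uneven. Cdx2, the homeobox factor that specifies trophectoderm, did not enter and was above 0 in 13 of 42 keratin-high and 18 of 209 keratin-low cells, with highest values of 71.8 and 7.22 ppm. Eomes was above 0 in 26 and 122 cells and Elf5 in 9 and 33. Gata3 measured 0, 8.40 and 108 ppm in the keratin-high cells against 0, 0 and 60.4 in the keratin-low cells, also below the entry level. Hand1, a factor of giant cells and extraembryonic mesoderm, was above 0 in 17 and 24 cells, with a highest value of 427 ppm in a keratin-high cell. Tfap2c, a factor of trophectoderm and germ cells that embryonic stem cells also make, measured 0, 39.8 and 692 ppm in the keratin-high cells against 0, 44.5 and 257 in the keratin-low cells and was not called, at 0.63. Cdx2, Gata3, Eomes, Hand1 and Tfap2c were all above 0 together in 5 of 42 keratin-high and 3 of 209 keratin-low cells, and 4 of them were in 8 and 12 cells. These 5 factors were set side by side after their values were seen.

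Primitive and parietal endoderm genes were split. Of 28 listed, 10 entered, 6 were called higher and 2 lower (8.68% and 5.36% over all genes). The summed level was 981, 2221 and 6852 ppm in the keratin-high cells against 614, 1586 and 3439 in the keratin-low cells. Col4a2 and Col4a1, basement membrane collagens, had log2 differences of 3.49 and 2.99, and Lrp2, the endocytic receptor megalin, one of 3.24. Lrp2 measured 0, 282 and 4329.6 ppm in the keratin-high cells against 0, 26.6 and 824 in the keratin-low cells. Lama1 and Apoe were called lower, with -3.19 and -1.16. The defining factors did not enter: Gata4 was above 0 in 19 of 42 and 61 of 209 cells, Gata6 in 12 and 24, and Sox17 in 1 and 10. Ttr, a secreted protein of visceral endoderm, was at 0 in all 42 cells.

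Of 18 fibroblast and feeder genes, 3 entered, Col1a1, Col5a1 and Fbn1, and each was called higher. Col1a1 averaged 0.412 ppm in the keratin-low cells and entered through its level in the keratin-high cells. The count of 3 therefore describes the members that entered and is not a result about the list. Col1a1, the type I collagen chain, was above 0 in 30 of 42 keratin-high and 35 of 209 keratin-low cells and measured 0, 20.5 and 2493 ppm in the keratin-high cells against 0, 0 and 6.20 in the keratin-low cells. 25 of the 42 cells were above all keratin-low cells, its log2 difference was 7.10, and 1 cell held 30.7% of the keratin-high sum. Col5a1 and Fbn1 had log2 differences of 2.61 and 1.20. The summed level of the list was 8.57, 137 and 3703 ppm in the keratin-high cells against 3.26, 39.7 and 207 in the keratin-low cells, and 18 of the 42 cells were above all keratin-low cells. The defining fibroblast genes Dcn, Thy1 and Pdgfrb had medians of 0 in the keratin-high cells, were above 0 in 6, 15 and 15 of the 42, and Lum was at 0 in all. Col3a1 was above 0 in 6 of the 42 cells. Keratin-low counts of Dcn, Thy1, Pdgfrb, Lum and Col3a1 are not given here, so no difference between the groups is read from them. The culture had no feeders per the labels, and the 129 share over all rows of a keratin-high cell was 42.9%, 45.3% and 47.7% (lowest, median and highest), against 42.9%, 44.8% and 49.4% in the keratin-low cells. The part of other cell types in the difference was not tested.

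Few neural, mesendoderm and early-embryo genes entered. Of 12 neural genes 4 entered, with a median of 1.24, and Nes was the only one called higher (8.68% over all genes). The summed neural level was 5.59, 197 and 1123 ppm in the keratin-high cells against 8.50, 77.3 and 280.2 in the keratin-low cells, and 14 of the 42 cells were above all keratin-low cells. Tubb3 and Sox11 were not called, with 1.52 and 0.96, and Pax6 and Sox1 were above 0 in 7 and 8 of the 42 cells and in 88 and 136 of the 209. None of 16 mesendoderm genes entered. Their summed level was 0, 24.7 and 209 ppm in the keratin-high cells against 0, 15.4 and 72.2 in the keratin-low cells, and 9 of the 42 cells were above all keratin-low cells. T, the brachyury factor, was above 0 in 2 of 42 keratin-high and 83 of 209 keratin-low cells, and Wnt3, a signal of the primitive streak, in 20 and 26. None of 17 genes of the cleavage-stage program entered, and no keratin-high cell had 3 of them above 0, which allows a share of up to 7.14%, while 6 keratin-low cells did. A count of 0 among 42 limits the share of cells with such values only.

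Basement membrane and integrin genes were higher in 13 of the 21 that entered (of 24 listed), and 1 was lower, Lama1 (8.68% and 5.36% over all genes). The median was 1.22. Itga3, an integrin subunit that binds laminin-511 as part of alpha 3 beta 1, measured 17.7, 565 and 1769 ppm in the keratin-high cells against 2.26, 72.4 and 382 in the keratin-low cells. 31 of the 42 cells lay above all keratin-low cells, with a log2 difference of 2.81 (SD over lanes 0.22). Itgb4, the hemidesmosomal integrin that plectin links to keratins, had 2.19. Itga5 and Itgb1, which form a fibronectin receptor, had 2.00 and 1.64. Fn1, fibronectin itself, was not called, at 0.64, with 28.1, 336 and 10318 ppm in the keratin-high cells against 50.7, 680.3 and 3170.3 in the keratin-low cells. 3 cells held 46.9% of its keratin-high sum, and its difference without them was -0.17. Nid2 was not called, at -0.79.

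Genes listed as p53 targets were higher in 8 of the 15 that entered (of 18 listed), with none lower (8.68% and 5.36% over all genes). Their median was 1.28. Cdkn1a, the cell cycle inhibitor p21, measured 0, 32.1 and 248 ppm in the keratin-high cells against 0, 11.4 and 276 in the keratin-low cells, with no keratin-high cell above the highest keratin-low cell, and a log2 difference of 1.65. Mdm2, the p53 ubiquitin ligase, had 1.28, Plk2 2.62, and the desmosomal gene Perp also counts here. The apoptosis gene Bax and the stress gene Sesn1 had 0.00 and -0.09 and were not called.

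Genes of ERK feedback and the immediate early response went both ways, with 6 of 18 called higher and 2 lower (8.68% and 5.36% over all genes). The AP-1 subunits Fosl2, Jun and Fos had log2 differences of 4.15, 2.55 and 2.37. Fosl2 measured 0, 37.3 and 945 ppm in the keratin-high cells against 0, 0.997 and 39.7 in the keratin-low cells. Dusp5, a nuclear ERK phosphatase, had 2.57, whereas Spry4 and Spry2, inhibitors of receptor tyrosine kinase signalling, were called lower with -2.01 and -1.20.

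Of 18 BMP, Nodal and TGF-beta targets, 10 entered, 3 were called higher and none lower (8.68% and 5.36% over all genes). Lefty2, a Nodal inhibitor, had a log2 difference of 2.80 and was above 0 in 22 of 42 keratin-high and 89 of 209 keratin-low cells. Id1, a direct BMP target, had a log2 difference of 0.08 and was not called.

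Cell cycle genes were close to or below the level of the keratin-low cells. Of 21 G1/S genes none was called higher and 1 lower, Ccne1, which encodes cyclin E1 and had a log2 difference of -1.08. The list's median was -0.56. Of 20 G2/M genes none was called higher and 1 lower, the checkpoint kinase gene Bub1b with -1.05, and Mki67 had 0.15. The list's median of -0.34 ranged from -1.23 to 0.13 over lanes. In both cell cycle lists, 1 lower call is near the share of 5.36% called lower over all genes. Differences below 0, called or not, were found for 19 of the 21 G1/S and 17 of the 20 G2/M genes. Summed levels lay below the lowest keratin-low cell in 16 of the 42 keratin-high cells for G1/S and in 10 for G2/M. Of 14 ubiquitous housekeeping genes none was called either way, the median was 0.01, and Gapdh had 0.03.

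**Figure D4:**
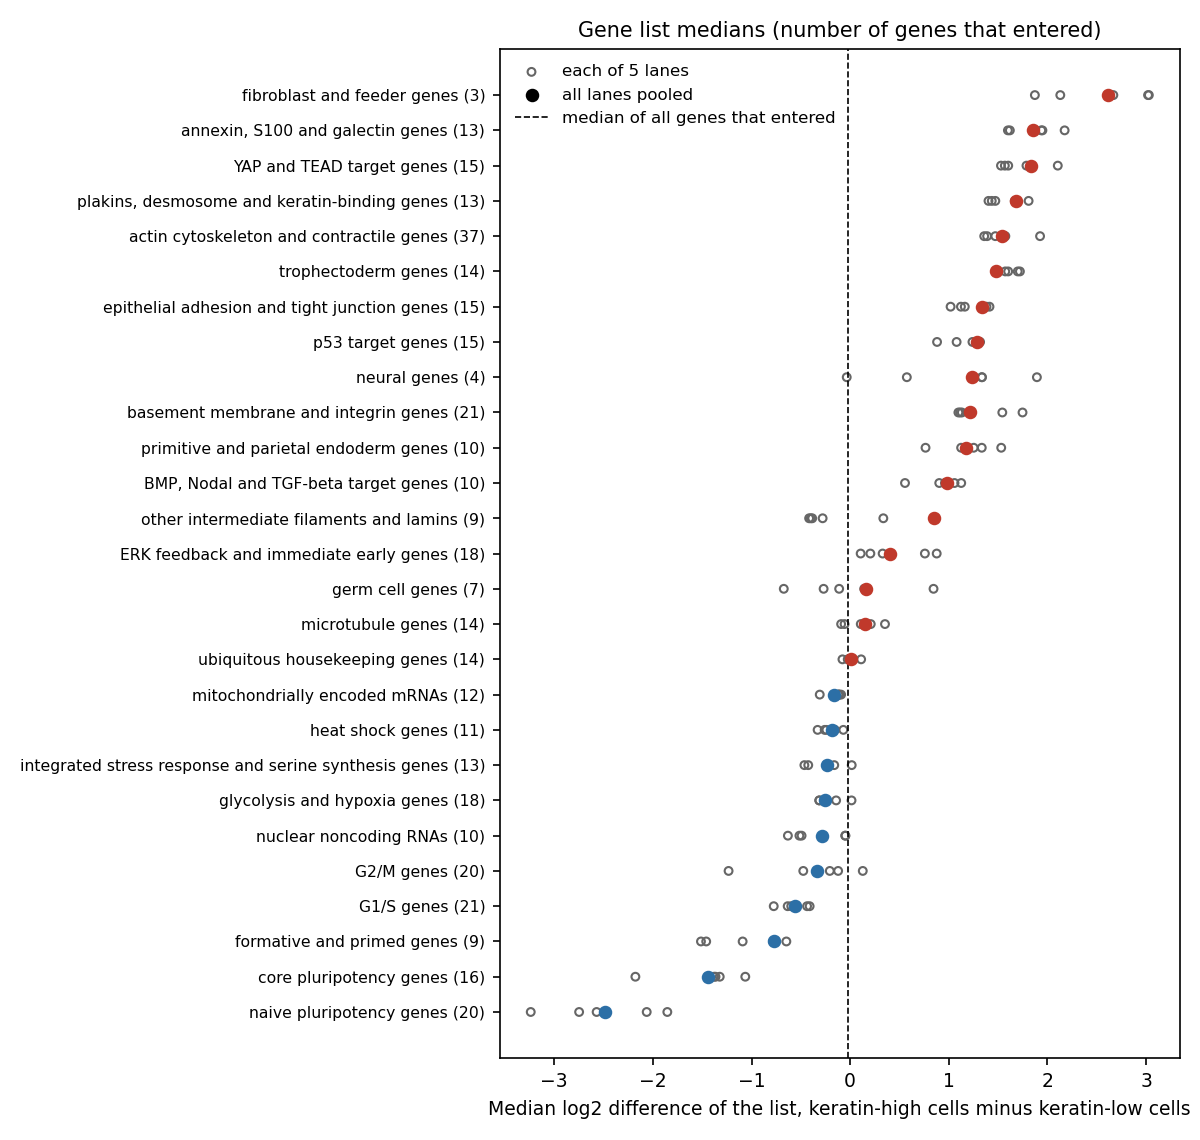
Median log2 difference, keratin-high minus keratin-low cells (horizontal), of each gene list with at least 3 genes that entered (vertical, number in brackets); filled points pool all lanes, open points are the 5 lanes, and the dashed line is the median of all genes, -0.02. Naive and core pluripotency lists lie at -2.48 and -1.44, and desmosome, actin, YAP and annexin lists between 1.53 and 1.85. The fibroblast and feeder list is highest at 2.61, with 3 genes, among them Col1a1, which entered through the keratin-high cells. The pooled medians of the intermediate filament list (0.85) and the trophectoderm list (1.48) lie outside the range of their lanes.

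The cells between the 2 groups, which the contrast did not use, had list medians close to those of the keratin-low cells, while single genes differed by more. On average Pou5f1 had 89.3 ppm in the keratin-high cells, 277 in the cells between and 324 in the keratin-low cells. Nanog averaged 42.2, 279.9 and 335 ppm in the same order. Thbs1 averaged 641, 31.5 and 6.26, and Flnc 727, 85.6 and 33.5. The log2 difference between the cells between and the keratin-low cells was 2.16 for Thbs1, 1.53 for H19, 1.43 for Anxa1 and 1.33 for Flnc. For H19 the medians were close, at 14.3 ppm in the cells between and 13.3 in the keratin-low cells. Its highest cell between had 11172.5 ppm, so its difference was one of means. In the same order, the medians were 6.53 and 0 for Thbs1, 4.82 and 1.1 for Anxa1 and 51.5 and 23.2 for Flnc. The highest cell between had 1370 ppm of Thbs1. The median difference between the cells between and the keratin-low cells was -0.14 for the naive list, -0.17 for the core list, 0.24 for the desmosome list and 0.12 for the actin list. Both comparisons share the keratin-low cells, so their differences are not independent.

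The genes whose level followed the keratin level most closely over all 419 cells were Slc25a24, Anxa1, Flnc, Cldn6, Perp, Wnt7b, Parp4, Anxa2, Sfn and Patj. Their Spearman correlations were 0.52 for Slc25a24, 0.52 for Anxa1, 0.51 for Flnc and 0.47 for Patj, over cells that share libraries and scaling. Parp4, the ADP-ribosyltransferase of vault particles, measured 5.46, 52.6 and 321 ppm in the keratin-high cells against 0, 7.14 and 78.6 in the keratin-low cells, a log2 difference of 2.72. Within the 42 cells alone, the correlation with the keratin level was 0.67 for Slc25a24, 0.64 for Flnc, 0.75 for Myh9 and 0.73 for Tpm1, and it was -0.70 for Pou5f1 and -0.74 for Sox2. Wnt7b reached 0.14 within the 42.

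The 42 cells were not alike. When they were divided by keratin level into the upper 21 and the lower 21, Pou5f1 averaged 39.7 ppm in the upper and 139 in the lower 21, against 324 in the keratin-low cells. All of the upper 21 and 11 of the lower 21 were below the lowest keratin-low cell for Pou5f1. Esrrb averaged 14.3 and 204 ppm in the upper and lower 21, against 652 in the keratin-low cells. Sox2 averaged 3.55 and 47.1, against 73.6. The summed naive level was below the lowest keratin-low cell in 19 of the upper and 10 of the lower 21. The upper 21 had the lower averages of Pou5f1, Esrrb and Sox2.

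Markers of other states were distributed unevenly over the 42. Acta2 averaged 1307 ppm in the upper 21 and 287 in the lower 21, against 1.1 in the keratin-low cells, and Thbs1 averaged 987 and 294, against 6.26. Their medians in the upper and lower 21 were 316 and 4.85 for Acta2 and 548 and 37.3 for Thbs1. In the lower 21, 1 cell had 5215 ppm of Acta2 and 4902 of Thbs1. H19 averaged 2247 and 648, against 65.6, but its medians went the other way, at 180 and 275, against 13.3. Hand1, the giant cell and mesoderm factor, averaged 57.6 and 15.7, against 1.00, with a median of 0 in each. Cdx2 averaged 0.446 and 10.0, against 0.200, and Tfap2c averaged 59.9 and 122, against 58.3, so both trophectoderm factors were highest on average in the lower 21. 7 of the lower 21 cells had more Cdx2 than any keratin-low cell, and none of the upper 21 did.

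3 of the 42 cells stood apart in contractile and matrix genes, and they were picked after their values were seen. They were the cells of highest Acta2, with 9475, 8598 and 5215 ppm, against at most 1791 in the other 39. In the same order they had 5027, 4093 and 4902 ppm of Thbs1, 2493, 258 and 2021 ppm of Col1a1, and 7175, 53.5 and 3215 ppm of Vim. Their Pou5f1 was 3.85, 3.69 and 2.03 ppm, and their Cldn6 was 0, 153 and 4.07 ppm. The first and the last of these 3 thus had most Vim and Col1a1 and little Cldn6, and the last was the cell of low Krt18. The 3 cells held 52.1% of the Thbs1 sum, 58.8% of the Col1a1 sum and 73.1% of the Vim sum of the keratin-high cells. Without them the log2 difference was 5.51 for Thbs1, 5.94 for Col1a1 and -0.93 for Vim, which was 0.85 with them. Without them 687 genes were called higher, 681 of them among the 762, and 442 lower, 431 of them among the 471.

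Among 12 genes chosen after their values were seen, 66 pairs were compared across the 42 cells. The contractile and matrix genes went together: the Spearman correlation was 0.77 for Acta2 with Col1a1 and 0.70 for Acta2 with Thbs1. Tfap2c went the other way, with -0.73 against Nes, -0.66 against Thbs1, -0.62 against Vim and -0.51 against Acta2. Krt7 with H19 had 0.57, while Krt7 with Vim had -0.52, and Nes with Lrp2 had 0.66. The points share libraries, scaling and the choice by keratin, and the values describe these 42 cells only.

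**Figure D5:**
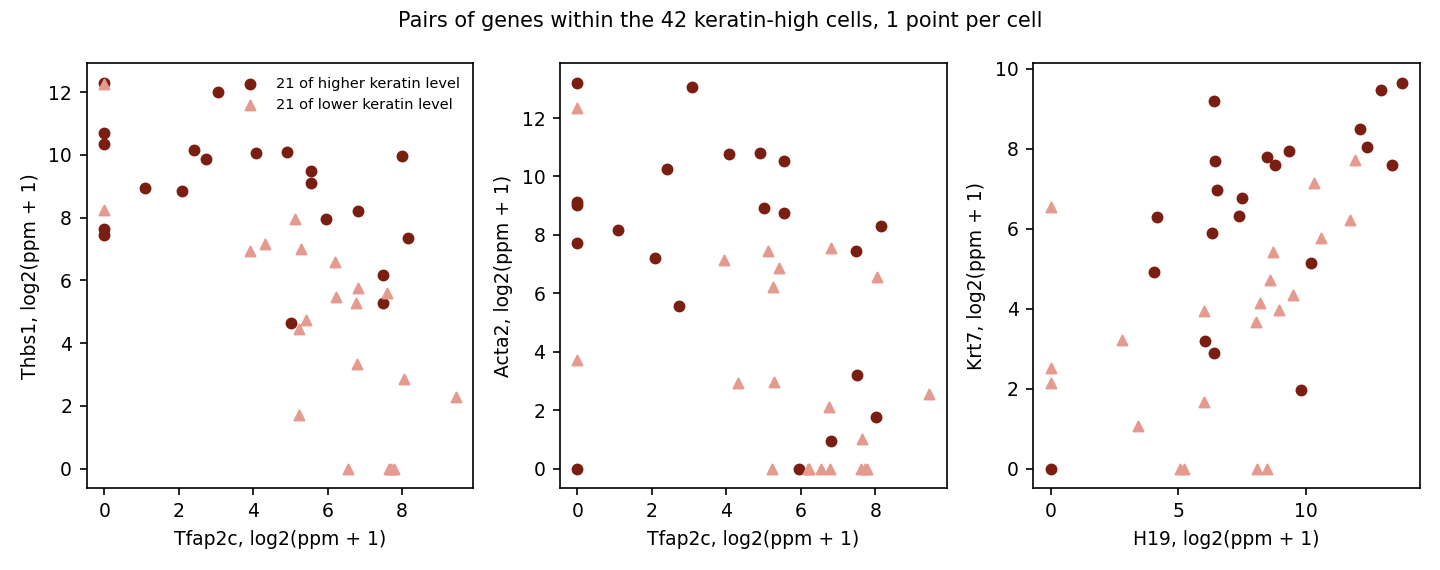
Levels as log2(ppm + 1) of Thbs1 against Tfap2c, Acta2 against Tfap2c and Krt7 against H19 within the 42 keratin-high cells, 1 point per cell; dark circles are the 21 cells of higher keratin level and light triangles the 21 of lower level. Cells with most Thbs1 or Acta2 have little Tfap2c (Spearman -0.66 and -0.51), and Krt7 increases with H19 (0.57).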

How the data were processed

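Values are those of 2 tables that the authors deposited, 1 for each allele, with 117762 Ensembl transcript rows and 1 column for each of the 419 cells. They are whole numbers, and they were handled as a score and not as raw counts, since the deposited totals per cell are nearly common (698363 to 1477656 over both alleles), so the depth in reads is unknown. The design had assumed counts. The submitters' processing notes name Bowtie 1.1.2 and mm10 but not what each was used for, and no source used here names the tool that divided reads between alleles and scaled them. The 129 table holds 0 in every row of chromosomes X, Y and M.

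Rows were joined to GENCODE vM21 (116919 rows matched, leaving 0.360% of the summed values outside) and summed per gene over rows and alleles, as parts per 1000000 of the cell's total (ppm). The members and the gene lists were chosen with earlier results of these data known. Cells are not replicates, so no p-value or standard error was made, and comparisons repeat the contrast within each of 5 lanes. Named genes are the 15 largest and 15 lowest differences among called genes that averaged 20 or more ppm in the higher group, without predicted genes and pseudogenes and with no cell over 25% of that sum. They also include the 10 highest correlations with the keratin level and the 2 highest and 2 lowest of each list. Other members of the lists were picked after their values were seen, for their known roles, and so was the division of the 42 cells. Doublets were not called, and all 419 cells were kept. The contrast was tested on simulated data with known answers before use. Python 3.11.15, numpy 2.4.6, pandas 2.3.3, scipy 1.17.1 and matplotlib 3.10.9 were used. Some genes that the rule names are not reported here.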

Additional observations from a re-analysis of the deposited data

How the results depend on the processing

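The contrast was recomputed under 23 alternatives, and all 37 genes named by size or correlation kept their sign in each of those that gave a value (849 values). Of 27 gene lists, 21 kept their sign in every alternative. Counts of called genes and 4 list medians (desmosome, actin, naive and core) moved as follows. With the 21 highest cells, 904 genes were lower and the medians were 1.89, 1.80 and -2.44 (desmosome, actin, core). With the 84 highest, 441 genes were higher and 127 lower, and the medians were 1.15, 1.04, -1.11 and -0.76. With the 21 cells of lower keratin level among the 42, an alternative chosen after seeing the data, 487 genes were higher and 258 lower, and the medians were 1.00, 1.09, -1.87 and -0.87. The desmosome median was 0.93 with the largest row per gene and 1.48 in the middle of the cells by genes detected. In the 129 table alone the desmosome and actin medians were 1.89 and 1.18, and in cells under 35% 129 on distal chromosome 12 they were 1.33 and 1.28. A pseudocount of 10 left 256 genes lower and gave 1.21 and -1.59 for the desmosome and naive lists. Without a filter 1830 genes were higher and 793 lower, out of 35169 that entered. The causes were not tested, apart from the number of genes or cells that an alternative changes by its construction. Leaving out each lane in turn gave 703 to 854 higher and 442 to 556 lower genes. Leaving out the cells under 0.1% mitochondrial, also added after seeing the data, gave 780 and 517. Leaving out the 3 keratin-high cells of highest Acta2, likewise added, gave 687 and 442, and the 4 medians kept their direction. Low genes are limited by the unknown depth, and 1 line with no named cultures leaves the spread between cultures unmeasured. No paired analysis was possible because the cells form 1 group without shared replicate numbers.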

Other observations

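Stress and metabolism genes were mostly not called between the keratin-high and keratin-low cells. The same was true of all genes that entered, of which 8.68% were called higher and 5.36% lower. Of 13 genes of the integrated stress response and serine synthesis (median -0.23), Ddit4, an mTOR inhibitor, was called higher with a log2 difference of 1.48, and Slc7a3, an X-linked transporter of cationic amino acids, was called lower with -1.65. None of 11 heat shock genes was called in either direction, and their median was -0.18. Hsph1, a cochaperone of Hsp70, measured 90.5, 169 and 495 ppm in the keratin-high cells against 193, 394 and 998 in the keratin-low cells, with 25 of the 42 cells below the lowest keratin-low cell and a log2 difference of -0.93. Among 18 glycolysis and hypoxia genes, the glucose transporter Slc2a1 and the hexokinase Hk1 were called higher, with 1.79 and 1.52, while the list's median was -0.25. None of 12 mitochondrially encoded mRNAs that entered was called, with a median of -0.17.

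None of 10 nuclear noncoding RNAs was called, with a median of -0.29, while 8.68% of all genes were called higher and 5.36% lower. Xist, the RNA that coats the inactive X chromosome, measured 0, 119 and 2321 ppm in the keratin-high cells against 12.6, 179 and 583 in the keratin-low cells. For Xist, 10 of the 42 cells were above the highest and 7 below the lowest keratin-low cell, and its log2 difference of 0.89 ranged from -1.80 to 1.54 over lanes, so it was not called. The imprinted RNAs Meg3 and Rian of distal chromosome 12 had log2 differences of -0.88 and -1.0 and were not called. H19 was read with a pooled 129 share of 49.8% in the keratin-high cells and 58.7% in the keratin-low cells. Igf2, the imprinted neighbour of H19, averaged 96.8 ppm in the upper 21 and 59.8 in the lower 21 of the keratin-high cells, against 2.38 in the keratin-low cells. Of 7 germ cell genes that entered, Rhox9 was called higher with 2.87 and Rhox5 lower with -1.08, both homeobox genes of the X chromosome.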
